A study of Mus musculus with 8 samples.

Results

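Transcripts of the dual-specificity phosphatases that act on MAP kinases were compared between LPS-treated macrophages labelled positive and negative for a reporter of Il19, a cytokine gene. The set holds 10 genes, taken by symbol from the 17823 genes of the deposited count table: Dusp1, Dusp2, Dusp4, Dusp5, Dusp6, Dusp7, Dusp8, Dusp10, Dusp14 and Dusp16. All 10 were present, and all 10 passed the filter on low counts that left 12610 genes for testing. The samples were macrophages grown from C57BL/6 mouse bone marrow for 7 days with 20 ng of M-CSF, the growth factor of this lineage, and given LPS of Escherichia coli O111:B4 at 1 µg/ml. Both groups had the same strain, culture and LPS treatment, and no library analysed here was labelled as untreated. The groups differ in the Il19-tdT reporter, with 4 tdT-positive and 4 tdT-negative libraries numbered 1 to 4 in each group. The sources used here do not give the age of the mice, the time under LPS, the design of the reporter allele or the way the cells were separated. The labels call the libraries biological replicates without naming the mice or cultures behind them, and the p-values reflect only how far these samples spread, which may be technical.

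MAP kinases (ERK, JNK and p38) are switched on by phosphorylation of a threonine and a tyrosine in their activation loop, and these phosphatases remove both phosphates. LPS activates all of these kinases in macrophages through Toll-like receptor 4, and the kinases in turn induce several of the phosphatase genes, which makes them a negative feedback. Dusp1, Dusp2, Dusp4 and Dusp5 encode nuclear enzymes, Dusp6 and Dusp7 encode cytosolic enzymes with a preference for ERK, Dusp8, Dusp10 and Dusp16 encode enzymes that prefer JNK and p38, and Dusp14 encodes a small atypical member without the kinase-binding domain. Transcript levels were compared here; enzyme activity and kinase phosphorylation were not measured.

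Total counts lay between 49850537 and 58516454 per library. The libraries carried macrophage transcripts: all 9 macrophage markers were detected, with a summed level of 14337 to 18759 CPM (counts divided by the scaled library size) in tdT-positive and 12074 to 21730 CPM in tdT-negative libraries. Il19 itself was at 145 to 234 CPM in tdT-positive and at 9.17 to 17.0 CPM in tdT-negative libraries, without overlap (log2 fold change 3.95, edgeR adjusted p = 0.000594). Because a reporter of Il19 defines the groups, this difference describes the grouping and is not a separate result. Summed markers of 5 other cell types were higher in the tdT-negative group. The 12 stromal markers summed to 63.1 to 155 CPM against 262 to 2307 CPM (10 of 11 tested members lower), the 9 neutrophil markers to 3.47 to 7.78 against 14.95 to 276 CPM (4 of 6 lower), the 6 monocyte markers to 20.5 to 38.7 against 52.0 to 191 CPM (3 of 6 lower), and the 7 dendritic cell markers to 5.89 to 11.7 against 23.6 to 55.8 CPM (4 of 4 lower). The 7 osteoclast markers summed to 60.0 to 114 against 80.2 to 1398 CPM (4 of 7 lower), with the highest sum in tdT-negative replicate 4. Lymphocyte markers summed to at most 0.201 CPM. No marker found in the table was at 0 in all 8 libraries. In tdT-positive replicate 3, the ribosomal RNA gene Rn45s stood at 141822 CPM against 3132 to 7467 CPM elsewhere. The counts of lower markers are from edgeR with the replicate number as a block, described next.

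Libraries of the same number deviated together, so each comparison was made both without and with the replicate number in the model (edgeR quasi-likelihood tests, Benjamini-Hochberg adjustment over all genes tested). Without the number, 0 of the 10 members passed an adjusted p of 0.05, where 0.0238% of all genes did. At an unadjusted p under 0.05 there were 2, Dusp5 and Dusp7, beside 16.3% of all genes. With the DESeq2 Wald test in place of edgeR, Dusp5 passed (adjusted p = 0.0422), as did 7.30% of all genes. With the number as a block 1 member passed, Dusp5, which rose. At an unadjusted p under 0.05 there were 4 members beside 32.7% of all genes. In that fit 15.8% of all genes were called, 8.03% as higher and 7.81% as lower, so 1 of 10 is near the share of all genes and is not a result about the set. The median log2 fold change over the 10 members was 0.19, beside 0.0051 over all genes tested. A positive estimate was found for 6 of 10 members, beside 6410 of all 12610 genes tested. Scaling by library totals alone changed the share of calls that were higher from 50.7% to 29.8% over all genes, with Dusp5 still the 1 member that passed. Every log2 fold change given next sets tdT-positive over tdT-negative libraries (n = 4 a group) and comes, with its standard error (SE), from the blocked fit unless stated.

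**Figure D1:**
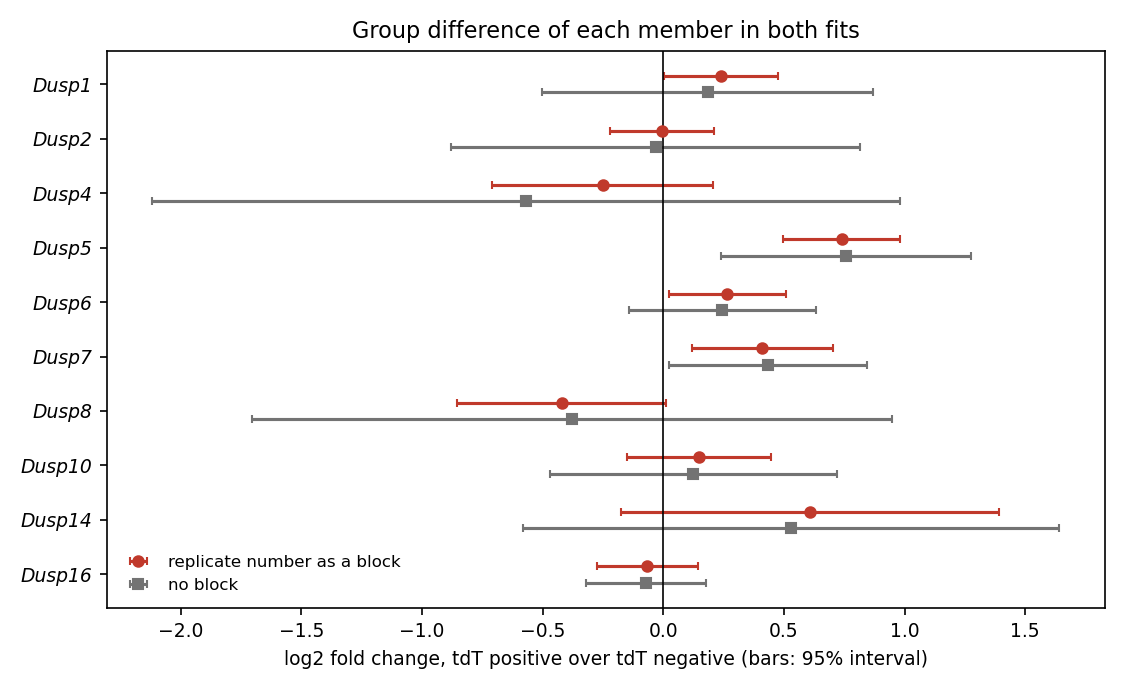
Log2 fold change of each of the 10 genes (tdT positive over tdT negative, x axis) with its 95% interval, with the replicate number as a block (circles) and without it (squares). Dusp5 has the only adjusted p under 0.05, at 0.74 in the blocked fit, and the intervals of Dusp4, Dusp2 and Dusp8 are much narrower with the block than without it.

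Of the 4 nuclear phosphatase genes, 1 rose and 3 did not pass, where the blocked fit called 8.03% of all genes as higher. A count of 1 in so few genes is not read as a result about this subgroup. Dusp5 encodes an inducible enzyme of the nucleus that is specific for ERK, and lies on the plus strand of chromosome 19 at 53529145 to 53541809 (GRCm38). It was at 7.84, 8.04, 10.2 and 14.2 CPM in tdT-positive replicates 1 to 4 and at 5.16, 5.54, 5.19 and 7.96 CPM in tdT-negative replicates 1 to 4, from 277 to 871 reads per library. The tdT-positive library was the higher one in 4 of 4 numbers, by 0.60, 0.53, 0.97 and 0.84 on the log2 scale. The largest difference was in number 3, whose tdT-positive library held 141822 CPM of Rn45s, and the part of that library's RNA was not tested. The ranges met only at their edges, where tdT-negative replicate 4 (7.96 CPM) lay above tdT-positive replicate 1 (7.84 CPM). Means were 10.1 ± 2.97 and 5.96 ± 1.34 CPM (SD, n = 4), and Dusp5 rose by 0.74 on the log2 scale (SE 0.10, 95% interval 0.50 to 0.98, edgeR adjusted p = 0.00958), a 1.67-fold difference. Without the block the estimate was 0.76 (SE 0.23) and did not pass (edgeR adjusted p = 0.146). With both libraries of any 1 number left out, Dusp5 still passed, with estimates of 0.65 to 0.80 and edgeR adjusted p between 0.00457 and 0.0462. Those 4 fits, leaving out numbers 1 to 4 in turn, called 7.99%, 2.76%, 2.80% and 20.2% of all genes. Dusp5 also passed in the 5 other blocked analyses, which called 15.8% (scaling of DESeq2), 11.2% (library totals), 13.1% (no filter), 19.9% (DESeq2 Wald test) and 17.0% (limma voom) of all genes. The summed stromal, neutrophil, monocyte, dendritic and osteoclast markers given above were lower in the tdT-positive group. Their part in the Dusp5 difference was not tested. GENCODE places an antisense gene, AC137853.2, over up to 547 bases of a Dusp5 exon. The library kit keeps the strand, but the sources used here do not give the strand setting of the counting. Reads of Dusp5 and AC137853.2 within the overlap therefore cannot be told apart here. The same holds for shorter opposite-strand overlaps of Dusp8 with Gm32786 (up to 66 bases) and Dusp1 with Ergic1 (up to 11 bases).

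The upstream sequence of Dusp5 is shown because it is the member that passed, beside that of Dusp1, the most abundant member, which did not pass. RefSeq windows on GRCm38.p6 were matched by gene identifier for 9 of the 10 members, all but Dusp4. Capitals mark the matches named after them, and each line holds the 250 bases before the RefSeq start, 5′ to 3′ on the gene's strand.
Dusp5, chr19:53528895-53529144, plus strand: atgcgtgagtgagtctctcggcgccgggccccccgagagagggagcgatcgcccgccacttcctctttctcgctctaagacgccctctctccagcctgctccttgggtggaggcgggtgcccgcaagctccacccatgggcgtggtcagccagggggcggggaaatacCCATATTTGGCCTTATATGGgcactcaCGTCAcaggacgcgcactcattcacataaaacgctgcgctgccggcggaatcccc
Dusp1, chr17:26508473-26508722, minus strand: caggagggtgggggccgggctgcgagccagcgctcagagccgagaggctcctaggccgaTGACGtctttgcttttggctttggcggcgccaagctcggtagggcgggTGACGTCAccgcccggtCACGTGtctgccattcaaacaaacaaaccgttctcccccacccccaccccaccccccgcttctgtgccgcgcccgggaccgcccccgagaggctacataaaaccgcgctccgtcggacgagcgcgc

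In Dusp5 the capitals are 2 adjacent CArG boxes, the letters bound by serum response factor in many ERK-induced genes, at 82 to 73 and 72 to 63 bases before the start, and the short element TGACG, a part of the cAMP response element (here on the opposite strand) at 55 to 51. In Dusp1 they are the short element TGACG at 191 to 187, a full cAMP response element (TGACGTCA) at 143 to 136, which contains the short element on both strands, and an E-box (CACGTG) at 126 to 121. Matches were sought on both strands. The windows of Dusp7, Dusp8, Dusp14 and Dusp16 lie wholly or partly inside the gene's span, before a start within it, and other starts were not searched. Among the 9 windows the CArG box was found in Dusp5 alone, and 1.47% of all 32851 RefSeq windows of this length hold one. The full cAMP response element was found in Dusp1 and Dusp8 (1.55% of all windows), the short element in Dusp1, Dusp5, Dusp8 and Dusp16 (17.8%), and the E-box in Dusp1 and Dusp2 (6.02%). No match was found in the 9 windows for AP-1 (TGANTCA, 6.75% of all windows), NF-kB (3.90%), an ETS site (CCGGAAGT, 2.88%) or the TATA box (TATAAA, 12.4%). These are letter matches, and binding was not measured.

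Dusp1 encodes the phosphatase best known for limiting p38 and JNK in LPS-treated macrophages. It was at 454, 333, 242 and 300 CPM in tdT-positive replicates 1 to 4 and at 461, 314, 189 and 207 CPM in tdT-negative replicates 1 to 4. The groups overlapped, and tdT positive was higher in 3 of 4 numbers, by 0.54 in number 4 and 0.36 in number 3, with differences of 0.08 and -0.02 in numbers 2 and 1. The estimate was 0.24 (SE 0.10, 95% interval 0.0035 to 0.47) and did not pass (edgeR adjusted p = 0.148).

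Dusp2, a nuclear phosphatase gene of activated leukocytes, had the smallest estimate of the set. Its levels were 71.4, 42.1, 40.1 and 26.6 CPM in tdT-positive replicates 1 to 4, beside 74.4, 51.1, 33.0 and 25.8 CPM in tdT-negative replicates 1 to 4. The log2 fold change was -0.0045 (SE 0.09, edgeR adjusted p = 0.978), and its 95% interval ran from -0.22 to 0.21. Between replicate numbers the gene varied 2.78-fold, and it was highest in number 1 and lowest in number 4 in both groups.

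Dusp4, a nuclear phosphatase gene whose enzyme acts on ERK and JNK, was set apart by number 4. It was at 8.92, 14.4, 13.3 and 33.99 CPM in tdT-positive replicates 1 to 4 and at 9.61, 15.9, 10.6 and 68.7 CPM in tdT-negative replicates 1 to 4. Both libraries of number 4 were above the other 6, and tdT-negative replicate 4 was the highest of all. The estimate of -0.25 (SE 0.20, edgeR adjusted p = 0.412) rested on that number, where the log2 difference was -1.01. It was 0.03 without number 4 (edgeR adjusted p = 0.851), and without the block it went from -0.57 to 0.54 when tdT-negative replicate 4 was left out, the sign being turned by that library. That library also held the highest sums of stromal (2307 CPM) and osteoclast markers (1398 CPM), and their part in the Dusp4 level was not tested. In bulk RNA, more cells that express a gene and more transcript per cell cannot be told apart.

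**Figure D2:**
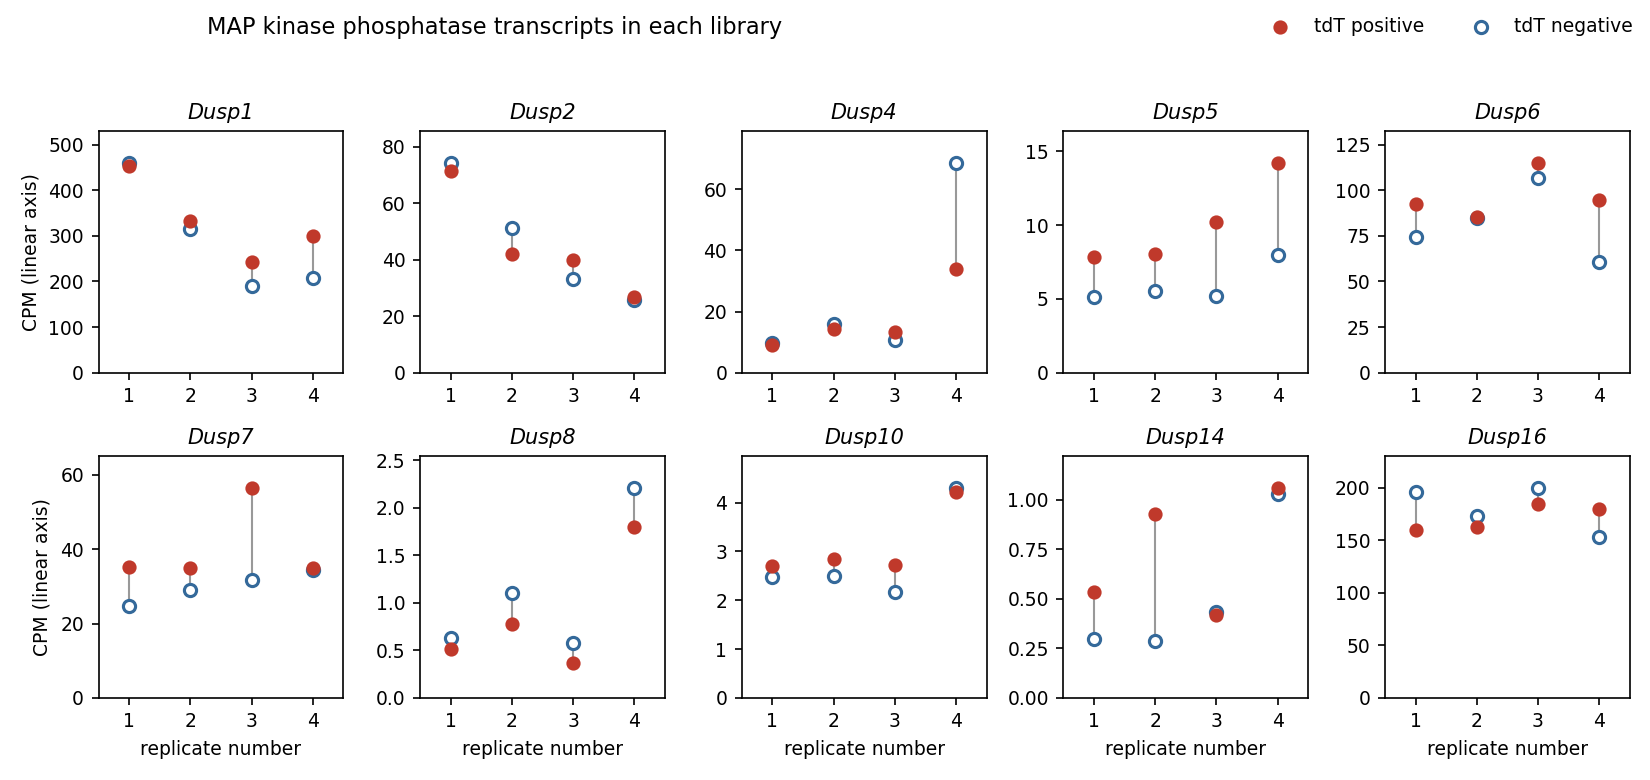
CPM (linear axes from 0) of each of the 10 genes in the 4 tdT-positive (filled) and 4 tdT-negative libraries (open), with libraries of the same replicate number joined by a line. Dusp5 is higher in tdT-positive libraries in 4 of 4 numbers, Dusp8 is lower in 4 of 4, and Dusp4 stands at 33.99 and 68.7 CPM in number 4.

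The cytosolic ERK phosphatase genes were higher in the tdT-positive library of each number, but neither passed. Dusp7 was at 35.2, 34.8, 56.6 and 35.0 CPM in tdT-positive replicates 1 to 4 and at 24.6, 29.0, 31.8 and 34.3 CPM in tdT-negative replicates 1 to 4. It was the 1 member of 10 whose groups did not overlap, as was the case for 11.4% of all genes (5.46% with tdT positive above). The gap was narrow, from 34.3 to 34.8 CPM, and the difference within number 4 was 0.03 on the log2 scale. Its estimate of 0.41 (SE 0.12, 95% interval 0.12 to 0.70) missed the threshold (edgeR adjusted p = 0.0658). Dusp7 passed without number 4 (0.55, edgeR adjusted p = 0.00886, in a fit that called 20.2% of all genes), with the DESeq2 Wald test and the block (adjusted p = 0.0216) and without the filter on low counts (edgeR adjusted p = 0.0352). It was 0.26 without number 3 (edgeR adjusted p = 0.204). The highest value, 56.6 CPM, was that of tdT-positive replicate 3, the library with 141822 CPM of Rn45s, and the part of that library's RNA in the result was not tested.

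Dusp6 encodes the classical cytosolic phosphatase of ERK. It was at 92.2, 85.1, 115 and 94.8 CPM in tdT-positive replicates 1 to 4, against 74.6, 84.8, 107 and 60.9 CPM in tdT-negative replicates 1 to 4. The groups overlapped, and the difference within a number went from 0.0041 in number 2 to 0.64 in number 4. The estimate was 0.26 (SE 0.10, 95% interval 0.02 to 0.51, edgeR adjusted p = 0.126). Dusp5, Dusp6 and Dusp7 were the 3 members higher in the tdT-positive library of all 4 numbers, a pattern shared by 21.9% of all genes. With Dusp8, which was lower in all 4, 4 members kept 1 direction, beside 41.5% of all genes.

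None of the genes for JNK and p38 phosphatases passed. Dusp16, the most abundant of these transcripts, was at 160.0, 163, 185 and 180 CPM in tdT-positive and 196, 173, 200 and 153 CPM in tdT-negative replicates 1 to 4. The groups overlapped, with an estimate of -0.07 (SE 0.09, 95% interval -0.28 to 0.14, edgeR adjusted p = 0.640). Its interval was the narrowest of the 10. Dusp10, whose product acts on JNK and p38 in nucleus and cytosol, was at 2.70, 2.84, 2.71 and 4.22 CPM against 2.48, 2.50, 2.16 and 4.31 CPM in replicates 1 to 4. Number 4 was the highest in both groups, and the estimate was 0.15 (SE 0.13, 95% interval -0.15 to 0.45, edgeR adjusted p = 0.461).

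Dusp8 was scarce, from 16 to 131 reads per library. It was at 0.518, 0.774, 0.371 and 1.80 CPM in tdT-positive replicates 1 to 4 and at 0.633, 1.11, 0.576 and 2.21 CPM in tdT-negative replicates 1 to 4. It was the 1 member that was lower in the tdT-positive library of all 4 numbers, with an estimate of -0.42 (SE 0.18, 95% interval -0.85 to 0.01) that did not pass (edgeR adjusted p = 0.163). Dusp14, the atypical member, was likewise scarce, from 16 to 65 reads. Its values of 0.537, 0.929, 0.417 and 1.06 CPM stood beside 0.298, 0.285, 0.432 and 1.03 CPM, so that numbers 1 and 2 differed by 0.78 and 1.59 on the log2 scale and numbers 3 and 4 by -0.05 and 0.04. The estimate of 0.61 (SE 0.33) had a 95% interval from -0.18 to 1.39 and did not pass (edgeR adjusted p = 0.251). The interval of Dusp14 takes in both 0 and the size found for Dusp5.

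Per length of transcript, the 10 genes spanned a wide range. As RPKM (CPM per kilobase of the deposited gene length), Dusp1 averaged 161 over the 8 libraries (97.4 to 237), above 96.8% of genes tested. Dusp16 (34.5), Dusp6 (31.9) and Dusp2 (28.2) came next and overlapped in range, so their order is not settled. Dusp2 also overlapped Dusp7 (10.95), and Dusp7, Dusp4 (9.03) and Dusp5 (6.94) overlapped each other in turn. Dusp10 (1.10) was below all of these, and Dusp14 (0.432) and Dusp8 (0.207), which overlapped, were below Dusp10. Dusp5 was above 51.5% of genes tested per length. The mean of Dusp1 was 4.67-fold that of Dusp16, and their ranges did not meet.

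For 10 of 10 members the difference between the highest and lowest number (mean log2 CPM of its 2 libraries) was larger than the difference between groups, as it was for 84.7% of all genes tested. A range over 4 numbers is set here against a single difference of 2 means, so the count is not read as a trait of the members. The median range was 0.95 over the members, beside 0.45 over all genes tested, whereas the median size of the group difference was 0.25 beside 0.16. Dusp4 had the widest range between numbers (2.38, or 5.205-fold) and Dusp16 the narrowest (0.21). For Dusp5 the range between numbers (0.74) and the difference between groups (0.73) were nearly equal. Number 4 was the highest number in both groups for 5 members, Dusp4, Dusp5, Dusp8, Dusp10 and Dusp14, beside 18.9% of all genes. It was the lowest in both groups for Dusp2, beside 17.1% of all genes. This pattern was picked out after its values were seen and was not tested. Dusp1 and Dusp2 were both highest in number 1 in both groups. Libraries of a number share a number in the labels, and what else they share is not given there.

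**Figure D3:**
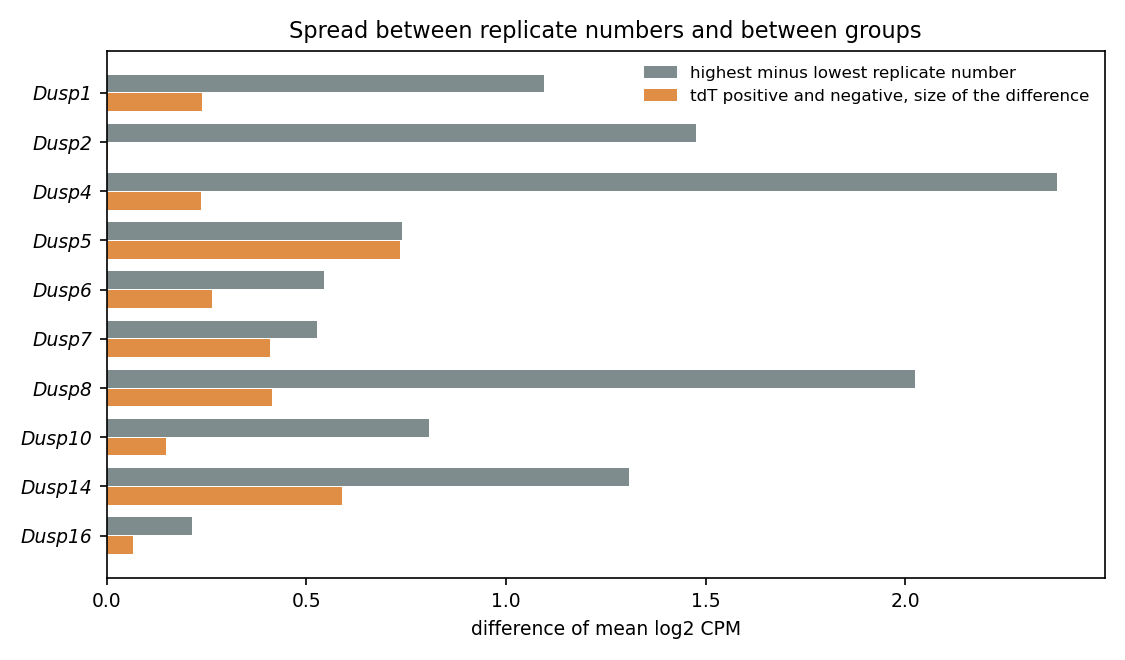
For each of the 10 genes, the difference between the highest and lowest replicate number (grey) and the size of the difference between tdT-positive and tdT-negative libraries (orange), both in mean log2 CPM. The grey bar is the longer in 10 of 10 genes, as in 84.7% of all genes tested, by most in Dusp4 (2.38 against 0.24) and by least in Dusp5 (0.74 against 0.73).

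Of 16 other listed genes for dual-specificity phosphatases and related proteins, 14 were in the table and 10 passed the filter. This list was not limited to enzymes that act on MAP kinases. Of these, 1 fell and 9 did not pass, where the blocked fit called 7.81% of all genes as lower. Dusp9, a further ERK phosphatase gene, fell (-2.10, SE 0.57, edgeR adjusted p = 0.0487) at low levels, 0.116 to 0.396 CPM in tdT-positive and 0.354, 0.974, 0.540 and 5.41 CPM in tdT-negative replicates 1 to 4. The fold depended on tdT-negative replicate 4: the estimate was -1.22 without number 4, still passing (edgeR adjusted p = 0.0483), and the gene did not pass without number 2 or number 3 (edgeR adjusted p = 0.132 and 0.153) or with the scaling of DESeq2 (0.0523) or library totals (0.0632). Of 8 listed phosphatases of other families that act on MAP kinases, 6 were tested and none passed with edgeR, including Ppp2ca, the most abundant (283 ± 12.7 and 301 ± 29.0 CPM, -0.09, SE 0.07, edgeR adjusted p = 0.392).

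Of 27 tested genes of the MAP kinase cascade, 2 rose, none fell and 25 did not pass, with a median log2 fold change of 0.07, where the same fit called 15.8% of all genes. Mapk7, which encodes ERK5, rose by 0.44 (SE 0.07, edgeR adjusted p = 0.0123), from 34.3 ± 1.73 to 46.8 ± 3.95 CPM, with all tdT-positive libraries above all tdT-negative ones. Map3k1, a kinase gene upstream of JNK, rose by 0.39 (SE 0.07, edgeR adjusted p = 0.0178). Among kinase genes whose products the phosphatases act on, Mapk3 (-0.02), Mapk8 (-0.07), Mapk9 (0.09) and Mapk14 (0.17) did not pass. Of 10 kinase genes under the MAP kinases 1 rose, Mknk2 (0.26, SE 0.07, edgeR adjusted p = 0.0404), whose product phosphorylates a translation factor, and 9 did not pass. None of these 3 passed without number 3, nor did Map3k1 and Mknk2 without number 2, or Mknk2 without number 1 or with library totals (edgeR adjusted p = 0.0802).

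Of 8 listed genes for other feedback inhibitors of ERK signalling (Sprouty and Spred genes and Errfi1), 1 rose, 1 fell and 6 did not pass. The blocked fit called 8.03% of all genes as higher and 7.81% as lower. Spred3, which encodes a Sprouty-related inhibitor of signalling from Ras to ERK, was at 10.4 to 15.1 CPM in tdT-positive and 5.66 to 9.64 CPM in tdT-negative libraries, with no overlap, and rose by 0.69 (SE 0.09, edgeR adjusted p = 0.00852). Spry4, a Sprouty gene, fell by 1.99 on the log2 scale (SE 0.39, edgeR adjusted p = 0.0189) at 0.0575 to 0.180 against 0.149 to 1.05 CPM, and did not pass without number 2 or number 3 (edgeR adjusted p = 0.0527 and 0.0754). Its highest level, like that of Dusp9 and Etv4, was in tdT-negative replicate 4, the library with the highest stromal marker sum (2307 CPM), and the part of those markers in these falls was not tested.

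Of 17 tested immediate-early and ERK-response genes, 3 rose, 1 fell and 13 did not pass, with a median log2 fold change of -0.04, where the same fit called 8.03% of all genes as higher and 7.81% as lower. Fosl1, which encodes the AP-1 subunit Fra-1, was at 13.8, 15.6, 20.3 and 28.5 CPM in tdT-positive and 8.21, 10.4, 11.9 and 17.7 CPM in tdT-negative replicates 1 to 4. It was the higher in the tdT-positive library of each number and rose by 0.70 (SE 0.07, edgeR adjusted p = 0.00648). Phlda1, an immediate-early gene, rose by 0.44 (edgeR adjusted p = 0.0145), though not without number 2 (edgeR adjusted p = 0.0616). Jun, another AP-1 subunit gene, rose by 0.29 (edgeR adjusted p = 0.0364) and did not pass without number 2 or number 3 (edgeR adjusted p = 0.127 and 0.0937) or with library totals (0.0554). Etv4, an ETS factor gene induced by ERK, fell (-1.76, SE 0.28, edgeR adjusted p = 0.0122) at 0.116 to 0.359 against 0.437 to 1.54 CPM, and did not pass without number 3 (edgeR adjusted p = 0.0550). The classical early genes Fos (47.6 ± 7.13 and 60.5 ± 22.3 CPM, edgeR adjusted p = 0.343) and Egr1 (7.83 ± 2.74 and 8.24 ± 1.83 CPM, edgeR adjusted p = 0.593) did not pass.

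Of 6 tested cytokine genes known to be restrained by Dusp1, 1 rose and 5 did not pass. The blocked fit called 8.03% of all genes as higher, and 1 call in so few genes is not read as a result about the list. Il10, an anti-inflammatory cytokine gene, rose by 1.09 (SE 0.09, edgeR adjusted p = 0.00455), from 37.3 ± 14.4 to 80.0 ± 33.6 CPM, and its groups overlapped. It lies on chromosome 1 at 131019845 to 131024970, near Il19 (130932656 to 130945457), whose reporter defines the groups. The part of this shared location in the Il10 difference was not tested. Tnf (-0.21, edgeR adjusted p = 0.0581), Il6 (-0.13, edgeR adjusted p = 0.215) and Ccl3 (-0.25, edgeR adjusted p = 0.173) did not pass. None of the genes of these lists passed without the replicate block in edgeR. Of the 11 that passed with it, 8 failed to pass in at least 1 of the alternatives with the block. The other 3 were Spred3, Fosl1 and Il10. Over all genes, the fits without number 2 and number 3 called 347 and 355, beside 1998 in the main blocked fit. Loss of a call is therefore not read as a trait of these lists.

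**Figure D4:**
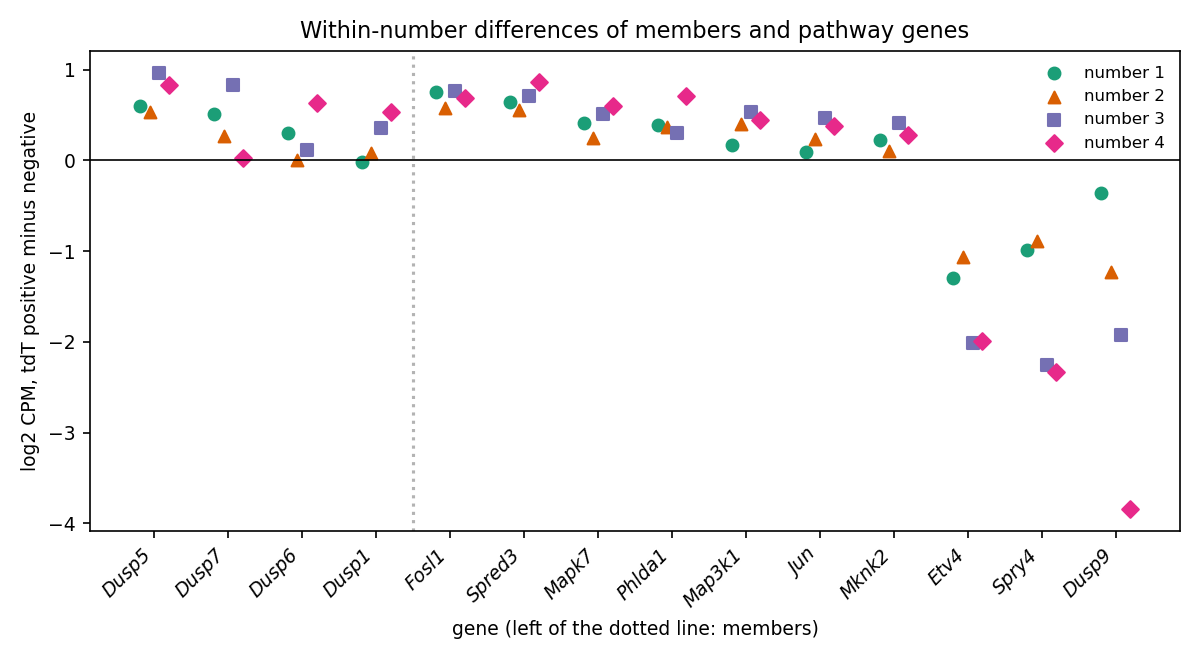
Log2 CPM of the tdT-positive minus the tdT-negative library of each replicate number (y axis), for 4 members left of the dotted line and for 10 other genes of the pathway lists that passed the blocked test. The 4 members are those at an unadjusted edgeR p under 0.05 in the blocked fit, all with positive estimates. Dusp8, lower in 4 of 4 numbers, is not among them. Dusp5 lies between 0.53 and 0.97 in all 4 numbers, Dusp7 falls to 0.03 in number 4, and Dusp9 reaches -3.84 in number 4.

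The genes whose levels followed Dusp5 most closely over the 8 libraries were sought by the root mean square difference of centred log2 CPM, over 9200 genes whose log2 CPM averaged 2 or more. They were Ptgir, the prostacyclin receptor gene (0.135), Sh2d3c, an adaptor gene (0.149), and Fosl1 (0.159), whereas Dusp5 itself deviated from its own mean by 0.477. Because likeness takes in the group difference, their own group differences are descriptions here. Mean levels were 32.6 and 20.8 CPM for Ptgir and 7.98 and 5.28 CPM for Sh2d3c in tdT-positive and tdT-negative libraries.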

How the data were processed

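Polyadenylated RNA of 8 libraries was sequenced after a stranded library preparation from 220 ng of total RNA, per the labels' protocols. The authors deposited read counts per gene with a gene length; STAR and mm10 are named in the submitters' processing notes, and the sources used here give neither the counting tool nor its use of strand. Of the 17823 genes, 8 had no symbol. The count table was used as deposited. Groups and replicate numbers were read from the titles. Genes were filtered with filterByExpr (minimum count 10, minimum total 15), scaled by TMM and tested with edgeR 4.0.16 in R 4.3.3 by quasi-likelihood, with Benjamini-Hochberg adjustment over all 12610 genes tested and a threshold of 0.05. The fit was made without and with the replicate number as a block; same-numbered libraries deviated together from their group means (correlations 0.627, 0.279, 0.619 and 0.558), so both are given. Standard errors were taken from the fold change and its F statistic. CPM uses TMM factors, log2 CPM a prior count of 2, and RPKM the deposited length. Alternatives used DESeq2 1.42.0, limma 3.58.1 (voom), other scalings, no filter and libraries left out. Both edgeR fits were tested on simulated data. No pair of libraries of a group agreed within sampling noise. Totals of 49850537 to 58516454 counts set the precision.

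The members and gene lists were chosen with earlier results of these data known. The text names all members, from each other list up to 4 passing genes with the smallest p in the blocked fit (the most abundant where none passed), the most abundant marker where used, Il19, and the 3 genes most like each passing member. Mapk3, Mapk8, Mapk9, Mapk14, Fos, Egr1, Tnf, Il6, Ccl3 and Rn45s were named outside that rule, after their values were seen.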

Additional observations from a re-analysis of the deposited data

Results flagged for a closer look

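Single libraries far from the other 3 of their group were sought with Dixon's test (critical value 0.829) in 62 groups of values over 31 genes; 10 were found, where chance gives about 1 in 20, or 3.1. Of these, 9 lay in libraries of number 4, and 7 of them in tdT-negative replicate 4. That library stood at 68.7 CPM for Dusp4 (next 15.9), 7.96 CPM for Dusp5 (next 5.54), 4.31 CPM for Dusp10 (next 2.50), 5.41 CPM for Dusp9 (next 0.974) and 1.54 CPM for Etv4 (next 0.576). In the same library the stromal marker Col1a1 was at 857 CPM (next 186) and the osteoclast marker Acp5 at 874 CPM (next 119). In tdT-positive replicate 4, Dusp10 was at 4.22 CPM (next 2.84) and Sh2d3c at 11.3 CPM (next 7.07). In tdT-positive replicate 3, Dusp7 was at 56.6 CPM (next 35.2). The test was run on linear CPM, and the chance figure of 3.1 assumes independent values with a normal spread, which was not checked. Genes of 1 library are not independent, and the part of the marker transcripts in these values was not tested.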

How the results depend on the processing

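The replicate block decided most calls. Without it 3 genes passed with edgeR, and with the replicate block 1998 did; the DESeq2 Wald test without the block called 921, no filter 216, and leaving out 1 library in turn 2 to 456 (456 without tdT-negative replicate 1, 225 without tdT-negative replicate 4). Of the members 0 passed without the block, 1 with it and 1 with the DESeq2 Wald test; with any 1 library left out the number stayed 0. From the blocked analysis, leaving out both libraries of a number gave 347 to 2535 genes (1023 without number 1, 347 without number 2, 355 without number 3), other scalings and tools 1418 to 2504, and no replicate block 3. The count of members, 1 with the block, was 0 with no replicate block, 2 with no filter, 2 with the DESeq2 Wald test and 1 to 2 with a number left out; the second was Dusp7. Library totals moved the median of all genes to -0.07 on the log2 scale.

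No member that passed changed sign. Among those that did not pass, Dusp2 turned to 0.0050 in the blocked fit with no filter. With numbers left out the blocked ranges crossed 0 for Dusp2 (-0.10 to 0.078, with 0.020 without number 1), Dusp4 (-0.45 to 0.034), Dusp16 (-0.15 to 0.014) and the macrophage marker Lyz2 (-0.21 to 0.13). Without the block and with single libraries left out they crossed 0 for Dusp1 (-0.00077 to 0.49), Dusp2 (-0.34 to 0.30), Dusp4 (-1.12 to 0.54), Dusp8 (-1.03 to 0.16) and Dusp10 (-0.062 to 0.39). Fewer libraries enter these fits; the cause of the other changes was not tested. Spry4 gave no value without number 4, where it did not pass the filter. Dusp8 had 16 to 131 reads per library and Dusp14 16 to 65; the part of depth in their intervals was not tested.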
